A study of Mus musculus with 27 samples.

Results

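The 9 kinase genes of the Src, Csk, Syk and Tec families, Src, Lyn, Fgr, Fyn, Yes1, Csk, Syk, Btk and Tec, were followed in macrophages over 4 h of stimulation with LPS or IL-4. They were chosen by gene symbol, and 9 of 9 were found among the 45070 genes of the table. The samples were bone marrow-derived macrophages, primary macrophages grown from the bone marrow of wild-type male C57/BL6 mice 6 to 8 weeks old. Chromatin-associated RNA, the RNA that remains bound to chromatin and is enriched in transcripts still being made, was sequenced in 27 samples. All groups had been kept with the vehicle DMSO for 1 h beforehand. They were untreated, or exposed for 0.5, 1, 2 or 4 h either to LPS, a bacterial ligand of the receptor TLR4, or to the cytokine IL-4, each at 10 ng/ml, which gave 9 groups of 3 replicates. Nothing stated that replicates came from separate animals or cultures, so the p-values measure the spread between these samples, which may be technical. As the samples are bulk, fewer cells of a type and less RNA per cell cannot be told apart.

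Src family kinases (here Src, Lyn, Fgr, Fyn and Yes1) sit at the plasma membrane and phosphorylate the cytoplasmic tails of Fc receptors, C-type lectin receptors and integrin-linked adaptors. Csk phosphorylates the inhibitory tail tyrosine of Src family kinases and so keeps them closed. Syk docks on the phosphorylated receptor tails, and the Tec family kinases Btk and Tec act next to it, upstream of phospholipase C gamma.

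Coordinates are those of the table (GRCm38, counted from 1), and the transcribed regions differed widely in length. On the plus strand, Src spanned chr2:157424293-157471838, Lyn chr4:3678121-3791612, Fgr chr4:132974095-133001893, Fyn chr10:39369799-39565381, Yes1 chr5:32611171-32687066 and Syk chr13:52583437-52648792. On the minus strand, Csk spanned chr9:57626646-57653631, Btk chrX:134542341-134583140 and Tec chr5:72755718-72868448. The shortest transcribed region was that of Csk, at 26986 bp, and the longest that of Fyn, at 195583 bp.

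Promoter sequences of 300 bases, from 250 bases before to 50 bases after an annotated start, came from RefSeq (GRCm38.p6), which held 10 promoters for 8 of the 9 genes, with no entry for Lyn. Those of 4 genes are shown as examples of both directions between the stimuli: Src and Syk with the higher values after LPS, and Csk and Fyn with the higher values after IL-4. The Src promoter is at chr2:157424043-157424342 (plus strand), the Syk promoter at chr13:52583187-52583486 (plus strand), the Fyn promoter at chr10:39369549-39369848 (plus strand) and the promoter inside the Csk gene at chr9:57645604-57645903 (minus strand). Each is written 5′ to 3′ along its gene, and capitals mark matches on either strand to GAGGAAG, the core letters that ETS factors such as PU.1 recognise.
Src: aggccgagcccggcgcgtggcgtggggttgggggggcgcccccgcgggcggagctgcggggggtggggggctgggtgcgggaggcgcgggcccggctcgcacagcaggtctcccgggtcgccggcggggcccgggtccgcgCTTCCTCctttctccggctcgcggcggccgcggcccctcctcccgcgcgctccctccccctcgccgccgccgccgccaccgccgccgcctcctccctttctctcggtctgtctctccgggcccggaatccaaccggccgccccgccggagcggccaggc
Syk: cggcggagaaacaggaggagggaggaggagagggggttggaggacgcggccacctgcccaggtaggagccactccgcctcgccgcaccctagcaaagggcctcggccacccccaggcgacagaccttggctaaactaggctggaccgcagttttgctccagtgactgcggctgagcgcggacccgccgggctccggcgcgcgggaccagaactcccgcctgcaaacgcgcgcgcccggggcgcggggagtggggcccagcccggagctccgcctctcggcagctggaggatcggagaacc
Fyn: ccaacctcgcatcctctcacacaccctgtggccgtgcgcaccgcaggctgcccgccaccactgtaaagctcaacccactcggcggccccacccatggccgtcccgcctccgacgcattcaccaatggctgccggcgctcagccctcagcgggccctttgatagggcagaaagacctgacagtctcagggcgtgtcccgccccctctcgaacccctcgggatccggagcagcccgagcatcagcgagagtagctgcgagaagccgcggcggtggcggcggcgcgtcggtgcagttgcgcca
Csk: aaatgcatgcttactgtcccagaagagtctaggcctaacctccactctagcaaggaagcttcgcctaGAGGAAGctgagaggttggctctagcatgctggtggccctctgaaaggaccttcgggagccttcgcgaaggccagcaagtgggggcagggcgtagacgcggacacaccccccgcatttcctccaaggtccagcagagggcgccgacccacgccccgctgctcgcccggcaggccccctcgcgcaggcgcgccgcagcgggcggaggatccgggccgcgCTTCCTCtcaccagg

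The Src promoter was rich in G and C, at 82.3%, against a median of 52.7% over all 32851 promoters of the table. It held 1 match to GAGGAAG, at position -109 from the annotated start on the minus strand. The Csk promoter shown held 2, at -183 on the plus strand and 35 on the minus strand. The Csk promoter at the start of the gene span (chr9:57653582-57653881), which is not shown, held none. Syk also had a further promoter that is not shown (chr13:52596632-52596931), without a match. Single matches lay in the Fgr and Btk promoters as well, and 13.6% of all promoters held the motif. Searched as well were 5 other motifs, on both strands and with no match in the 10 promoters: an NF-kB-like motif (in 1.47% of all promoters), a STAT6-like motif (6.95%), an ISRE-like motif (3.44%), an AP-1-like motif TGANTCA (7.81%) and a CRE-like motif TGACGTCA (1.79%). Any overlap between motifs was allowed. No match says only that these letters are not in these windows.

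The values are normalised read counts as the authors scaled them. Their sum per library ran from 3571492 to 4058199 in the LPS samples and from 2469768 to 2790981 in the untreated and IL-4 samples. With this scaling the median of the 13901 tested genes shifted by -0.24 to -0.30 on the log2 scale over the LPS times, and by -0.02 to 0.02 over the IL-4 times, so relative to that median the LPS rises given below are larger, and the falls smaller, by 0.24 to 0.30. The 10 macrophage markers summed to between 10064 and 19854, and each other marker list to at most 113: B cell markers, of interest because B cells also use Lyn, Syk and Btk, summed to between 1 and 8, the 7 neutrophil markers to between 3 and 91, and Cd3e and Ly6g were at 0 in all 27 samples. Replicate 1 stood apart for some members: it was the highest of the 3 in 9 of 9 groups for Src and for Syk, and the lowest in 7 groups for Btk and in 6 for Fyn. What part the marker levels have in the results was not tested, and values under other scalings or without a replicate are given beside the results they change.

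All 8 members with values high enough to test changed over the LPS course in a moderated F test (limma, adjusted p under 0.05, used for every call here), where 87.6% of all tested genes did. By their largest change 5 members rose (Src, Lyn, Fgr, Fyn and Syk) and 3 fell (Csk, Btk and Tec). Over the IL-4 course 7 of 8 changed, where 40.3% of all tested genes did: Fyn, Fgr, Csk, Tec and Btk rose, Lyn and Syk fell, and Src missed the threshold (adjusted p = 0.146). Without replicate 1, and also with a term for the replicate number in the fit, all 8 were called, Src among them. The number dropped to 6 without replicate 2 and to 5 without replicate 3. It was 6 without the filter on low values and in a fit of all 27 samples, and 5 with replicates 2 and 3 averaged. The courses share the untreated samples and are therefore given side by side. Yes1 was not tested, since its highest value was 9.

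**Figure D1:**
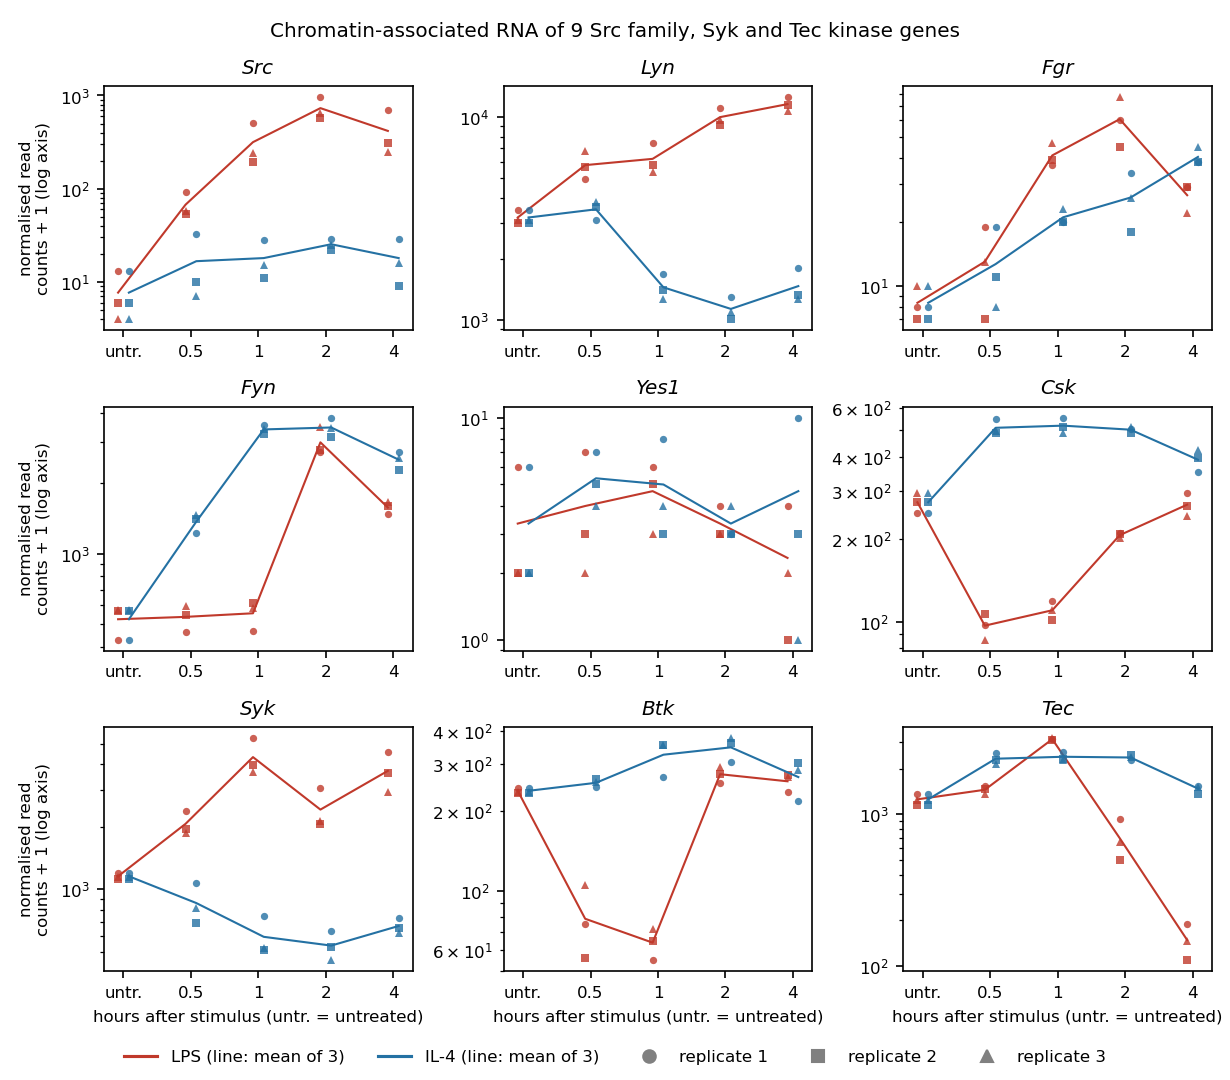
Normalised read counts + 1 (log axis, a separate scale for each gene) of the 9 kinase genes against hours after stimulus, with LPS in red and IL-4 in blue. Points are single samples, with a marker shape for each replicate number, and lines join the means of 3; the untreated samples are drawn for both courses. Lyn and Syk move in opposite directions after the 2 stimuli, Csk and Btk dip early after LPS, and Tec ends at 108 to 188 after 4 h of LPS.

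Src itself, the kinase after which the family is named, was nearly silent before stimulation. Its untreated values were 12, 5 and 3 normalised read counts in replicates 1, 2 and 3. After LPS they were 91, 52 and 56 after 0.5 h, 511, 194 and 239 after 1 h, 960, 578 and 654 after 2 h, and 696, 305 and 246 after 4 h. Every LPS sample lay above every untreated one, and replicate 1 was the highest each time, by 1.24 to 4.27 times the mean of the other two over the 9 groups. At 2 h the log2 fold change was 6.72 (SE 0.46, adjusted p = 3.98e-09), which corresponds to a 105-fold rise and is an understatement for so low a start, because 1 was added to each value before the logarithm. The rise was present at 0.5 h (log2 fold change 3.27, adjusted p = 2.54e-05) and was kept at 4 h (5.79, adjusted p = 2.25e-08).

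After IL-4 the Src values stayed low. They were 32, 9 and 6 after 0.5 h, 27, 10 and 14 after 1 h, 28, 21 and 24 after 2 h, and 28, 8 and 15 after 4 h. Only the 2 h samples did not overlap with the untreated ones, and there the log2 difference from untreated was 1.89 (SE 0.60, adjusted p = 0.0304). That call was lost without the filter on low values (1.89, adjusted p = 0.0996) and without replicate 2 or replicate 3, where the log2 fold changes were 1.90 and 1.52. The values at 1 h (1.39, adjusted p = 0.0182) and 4 h (1.29, adjusted p = 0.0224) were called without replicate 1. With a replicate block, a term for the replicate number, Src was called at 1, 2 and 4 h (adjusted p = 0.0098, 0.000509 and 0.0104).

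Lyn, which both activates and restrains signalling in myeloid cells through inhibitory receptors, split between the stimuli. Untreated samples held 3475, 3022 and 3100 normalised read counts. LPS raised this to 4941, 5655 and 6779 after 0.5 h, 7478, 5811 and 5366 after 1 h, 11121, 9154 and 9656 after 2 h, and 12519, 11458 and 10702 after 4 h, with no overlap with untreated at any time. The log2 fold change grew from 0.85 (SE 0.14, adjusted p = 0.000159) at 0.5 h to 1.85 (adjusted p = 1.9e-08) at 4 h, although the 0.5 h call was lost when libraries were rescaled to equal totals. After IL-4 the values were 3109, 3608 and 3814 after 0.5 h, overlapping with untreated. They then dropped to 1677, 1402 and 1270 after 1 h, 1301, 1013 and 1091 after 2 h, and 1813, 1323 and 1274 after 4 h. The IL-4 samples from 1 h onwards all lay below the untreated ones, and the largest log2 fold change was -1.50 at 2 h (SE 0.15, adjusted p = 4.16e-06). At 0.5 h of IL-4 the change missed the threshold (0.13, adjusted p = 0.636) but was called without replicate 1 (0.28, adjusted p = 0.0166).

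A pair of transcripts lie within introns of Lyn, the non-coding 6330407A03Rik on the same strand and the pseudogene Gm11805 on the other. 6330407A03Rik moved from 119.7 ± 7.23 (mean ± SD, n = 3) normalised read counts in untreated samples to 416.0 ± 8.0 at 4 h of LPS and 42.0 ± 1.73 at 2 h of IL-4. Their levels reached at most 4.33% and 2.88% of that of Lyn, and since the use of strand in counting is not stated, reads from them and from Lyn cannot be fully told apart.

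Fgr, a Src family kinase of myeloid cells, was low and rose after both stimuli. The untreated values were 7, 6 and 9 normalised read counts. After LPS they were 18, 6 and 12 after 0.5 h, 36, 38 and 46 after 1 h, 59, 44 and 76 after 2 h, and 28, 28 and 21 after 4 h. After IL-4 they were 18, 10 and 7 after 0.5 h, 19, 19 and 22 after 1 h, 33, 17 and 25 after 2 h, and 37, 37 and 44 after 4 h. From 1 h on, no sample of either course overlapped with the untreated ones. The LPS values peaked at 2 h (log2 fold change 2.85, SE 0.33, adjusted p = 1.67e-06) and had come down by 4 h, whereas the IL-4 values were highest at 4 h, 4.88-fold above untreated (SE 0.30 on the log2 scale, adjusted p = 7.19e-05). The IL-4 call at 1 h (1.35, adjusted p = 0.00512) was lost without replicate 2 and without replicate 3, at 1.26 and 1.42. Gm36599, a non-coding RNA on the other strand that touches an exon of Fgr, had a mean of at most 3.0 normalised read counts in any group. That was up to 18.2% of the Fgr level.

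Fyn rose at different times after the 2 stimuli. Untreated samples held 428, 570 and 571 normalised read counts. The LPS samples overlapped with these at 0.5 h (463, 547 and 596) and 1 h (464, 615 and 585), then held 2725, 2773 and 3459 after 2 h and 1471, 1588 and 1656 after 4 h. The IL-4 samples held 1229, 1409 and 1467 after 0.5 h, 3537, 3244 and 3391 after 1 h, 3805, 3140 and 3424 after 2 h, and 2721, 2269 and 2565 after 4 h. Every IL-4 sample was above the untreated range, while LPS samples at 0.5 and 1 h overlapped with it and those at 2 and 4 h did not. At 2 h of LPS it had risen 5.72-fold (log2 2.51, SE 0.15, adjusted p = 8.1e-10). With IL-4 the log2 change was 1.39 (SE 0.12, adjusted p = 2.5e-06) at 0.5 h and 2.73 (adjusted p = 3.65e-09) at 2 h. At 0.5 and 1 h of LPS the log2 fold changes were 0.04 and 0.09, neither past the threshold. They turned to -0.47 and -0.49, both called lower, when libraries were rescaled to equal totals, whereas under median-of-ratios rescaling the value at 1 h was called higher (0.35, adjusted p = 0.0316). Gm16364, a non-coding RNA on the other strand that overlaps the end of Fyn over 9311 bp, moved from 17.7 ± 3.06 untreated to 124.7 ± 9.07 at 2 h of IL-4 (mean ± SD, n = 3), at most 3.99% of the Fyn level.

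Yes1, a broadly expressed Src family kinase in other tissues, was at or near 0 in these cells. Its values ran from 0 to 9 normalised read counts over the 27 samples, and none reached the minimum of 10. Tested without the filter on low values, it had an adjusted p of 0.597 for LPS and 0.868 for IL-4, which at this level does not show that it was unchanged. Gm10461, which overlaps its start and touches an exon on the other strand, had a mean of at most 1.33. At these low values that was up to 75.0% of the Yes1 level, so shared reads cannot be told apart there.

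Csk, the kinase that holds Src family members inactive, moved early and in opposite directions. Untreated samples held 247, 273 and 294 normalised read counts. Within 0.5 h of LPS the values were 96, 106 and 85, and at 1 h they were 118, 100 and 109. They had returned to 210, 207 and 200 after 2 h and to 294, 262 and 242 after 4 h, the last overlapping with untreated. IL-4 gave 545, 486 and 493 after 0.5 h, 553, 512 and 487 after 1 h, 504, 486 and 510 after 2 h, and 349, 394 and 422 after 4 h, and every IL-4 sample was above every untreated one. The log2 fold change was -1.50 (SE 0.13, adjusted p = 1.32e-07) at 0.5 h of LPS and 0.93 (SE 0.09, adjusted p = 3.76e-06) at 1 h of IL-4. The remaining decrease at 2 h of LPS (-0.39, adjusted p = 0.0127) was lost under median-of-ratios rescaling (-0.16) and without replicate 2 or replicate 3 (-0.39 and -0.32). At 4 h of LPS the value of -0.03 became -0.64, past the threshold, under equal totals. Under median-of-ratios rescaling it was 0.20 and not called. The call at 4 h of IL-4 (0.51, adjusted p = 0.000665) was lost without replicate 2 (0.51).

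Syk, the kinase recruited to phosphorylated receptor tails, rose after LPS, with a dip at 2 h, and fell after IL-4. Untreated samples held 1199, 1117 and 1147 normalised read counts. The LPS values were 2383, 1947 and 1854 after 0.5 h, 5306, 3956 and 3673 after 1 h, 3063, 2058 and 2119 after 2 h, and 4560, 3629 and 2924 after 4 h. None of these overlapped with untreated, the 1 h samples did not overlap with those at 2 h, and the samples at 2 and 4 h did overlap. The log2 fold change was 1.88 (SE 0.19, adjusted p = 4.22e-07) at 1 h, 1.04 (adjusted p = 0.000155) at 2 h and 1.66 (adjusted p = 1.3e-06) at 4 h. The step from 1 to 2 h was -0.84 (adjusted p = 0.00163) and the step from 2 to 4 h was 0.62 (adjusted p = 0.025). At equal totals the calls at 0.5 and 2 h were lost.

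After IL-4, Syk held 1076, 688 and 811 normalised read counts after 0.5 h, 740, 511 and 521 after 1 h, 627, 525 and 456 after 2 h, and 728, 652 and 618 after 4 h. All 12 IL-4 samples were below all 3 untreated ones. The change at 0.5 h missed the threshold (log2 fold change -0.45, adjusted p = 0.0958), and it was largest at 2 h (-1.12, SE 0.17, adjusted p = 0.00023). The 0.5 h change was called without replicate 1 (-0.60, adjusted p = 0.0011), at equal totals (-0.58, adjusted p = 0.0318) and with the replicate block (adjusted p = 0.00413). The call at 1 h (-0.99) was lost without replicate 3 (-0.91) and that at 4 h (-0.80) without replicate 2 or replicate 3 (-0.81 and -0.75).

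Btk, the Tec family kinase of B cells and myeloid cells, was lowered by LPS at the early times and had recovered by 2 h. Untreated samples held 242, 233 and 235 normalised read counts, a narrow range. LPS samples held 74, 55 and 104 after 0.5 h, 54, 64 and 71 after 1 h, 253, 275 and 292 after 2 h, and 234, 271 and 266 after 4 h. The first 6 lay far below the untreated range. The log2 fold change was -1.64 (SE 0.18, adjusted p = 2.66e-06) at 0.5 h and -1.90 (adjusted p = 3.28e-07) at 1 h, and the step from 1 to 2 h was 2.11 (adjusted p = 1.82e-07). The values at 2 and 4 h of LPS, 0.20 and 0.12, missed the threshold and turned to -0.45 and -0.49, past it, at equal totals. Under median-of-ratios rescaling the 2 h value was instead called higher (0.44, adjusted p = 0.0408).

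IL-4 left Btk with a small rise. The values were 244, 262 and 255 after 0.5 h, 266, 352 and 353 after 1 h, 303, 359 and 373 after 2 h, and 216, 300 and 284 after 4 h. The samples at 0.5, 1 and 2 h were above the untreated range, and those at 4 h overlapped with it. Its log2 fold change was 0.44 (adjusted p = 0.0309) at 1 h and 0.54 (SE 0.13, adjusted p = 0.0079) at 2 h. Both calls were lost without replicate 2 or replicate 3, at 0.36 and 0.36 for 1 h and 0.49 and 0.47 for 2 h. The call at 1 h was lost in 6 of 11 alternatives, among them no filter on low values, equal totals and a fit of all 27 samples. At 4 h the change missed the threshold (0.16, adjusted p = 0.445) but was called without replicate 1 (0.32, adjusted p = 0.00431).

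Tec first rose above and then fell below its untreated level after LPS. Untreated samples held 1369, 1151 and 1240 normalised read counts. After LPS they held 1535, 1460 and 1354 after 0.5 h, 3124, 3088 and 3167 after 1 h, 927, 501 and 655 after 2 h, and 188, 108 and 145 after 4 h. The 1 h samples were the highest of any group and the 4 h samples the lowest, with no overlap on either side. On the log2 scale the change was 1.32 (SE 0.20, adjusted p = 3.53e-05) at 1 h, -0.89 (adjusted p = 0.00105) at 2 h and -3.12 (adjusted p = 1.9e-09) at 4 h, when the level was 8.67-fold lower than in untreated samples.

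After IL-4, Tec held a plateau from 0.5 to 2 h and had come down by 4 h. The values were 2547, 2268 and 2156 after 0.5 h, 2582, 2328 and 2271 after 1 h, 2273, 2453 and 2376 after 2 h, and 1543, 1369 and 1515 after 4 h. The first 3 times did not overlap with untreated, and the last did at its lower edge. The log2 fold changes were 0.89, 0.93 and 0.92 (SE 0.09, adjusted p between 3.34e-06 and 8.67e-06), and 0.24 at 4 h (adjusted p = 0.0636). The 4 h change was called without replicate 1 (0.27, adjusted p = 0.0124) and with the replicate block (0.24, adjusted p = 0.0175). It was also called among genes with a mean of at least 50 (0.24, adjusted p = 0.0457).

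**Figure D2:**
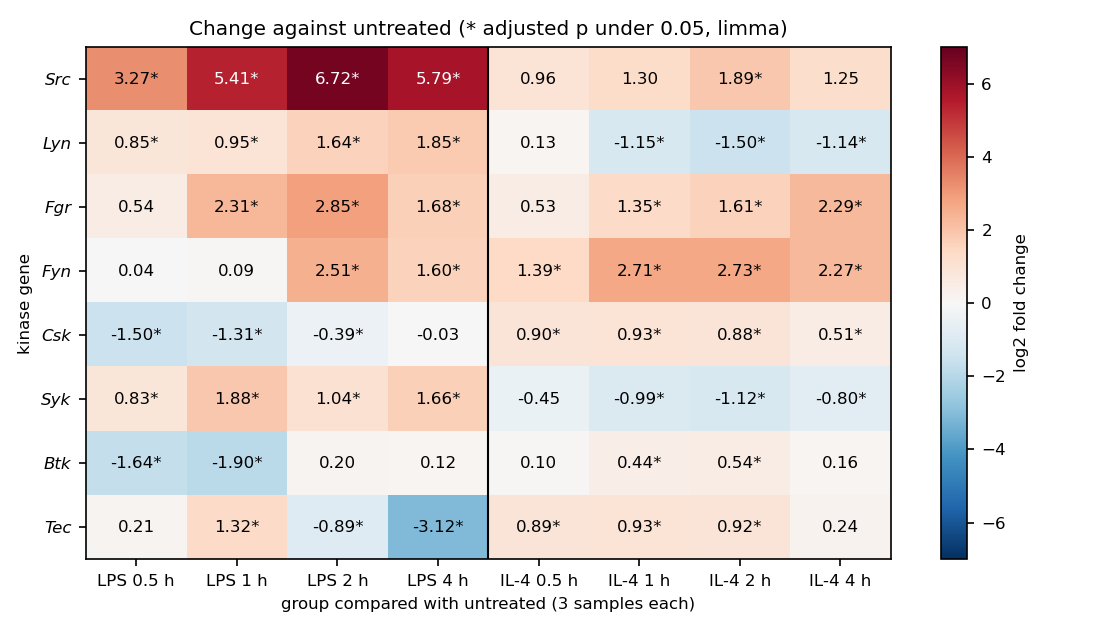
Log2 fold change against untreated of the 8 tested kinase genes at each time of LPS and IL-4, 3 samples per group, with red for higher and blue for lower values and an asterisk where the adjusted p (limma) was under 0.05. Src after LPS reaches 6.72, Tec runs from 1.32 at 1 h to -3.12 at 4 h of LPS, and Lyn and Syk change sign between the stimuli.

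Counted by time, 5 of the 8 tested members changed at 0.5 h of LPS, 7 at 1 h, 7 at 2 h and 6 at 4 h, where 53.9%, 63.8%, 65.9% and 63.5% of all tested genes did. At 0.5 h these were 3 rises and 2 falls, where 19.6% of all tested genes rose and 34.4% fell. They became 1 rise and 3 falls at equal totals, since the calls of Lyn and Syk were lost and Fyn was called lower. Of all called genes at this time, 36.3% were higher as deposited and 18.3% at equal totals. At 1 h, 5 members rose and 2 fell (24.8% and 39.0% of all tested genes), at 2 h 5 rose and 2 fell (26.9% and 39.0%), and at 4 h 5 rose and 1 fell (25.9% and 37.6%). At equal totals the splits at these 3 times were 5 and 3, 4 and 3, and 5 and 3. Under median-of-ratios rescaling those at 1 and 2 h were 6 and 2, and 6 and 1. Of all called genes, 38.9%, 40.8% and 40.7% were higher at these times as deposited, and 21.8%, 22.9% and 23.7% at equal totals. Under median-of-ratios rescaling 48.7% at 1 h and 49.3% at 2 h were higher. Over the whole course 32.9% of all tested genes rose and 54.7% fell by their largest change.

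After IL-4, 3, 7, 8 and 5 members changed in the order of the times, where 16.3%, 21.0%, 27.6% and 25.9% of all tested genes did. The 3 members called at 0.5 h rose (8.15% of all tested genes rose and 8.14% fell), and at equal totals 3 rose and 1 fell. At 1 h, 5 rose and 2 fell (11.1% and 9.83%), at 2 h 6 rose and 2 fell (14.3% and 13.2%), and at 4 h 3 rose and 2 fell (13.4% and 12.5%). Over the whole course 19.4% of all tested genes rose and 20.9% fell by their largest change. The IL-4 counts moved when a replicate was left out: without replicate 1 they were 5, 8, 8 and 8, without replicate 2 they were 3, 5, 6 and 3, and without replicate 3 they were 3, 4, 6 and 4.

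Changes between neighbouring times were tested as steps. From 0.5 to 1 h, 4 members changed, where 49.7% of all tested genes did, and these 4 (Src, Fgr, Syk and Tec) rose, where 25.1% of all tested genes rose and 24.6% fell. From 1 to 2 h, 7 changed, where 43.3% of all tested genes did (21.5% higher, 21.8% lower): Src, Lyn, Fyn, Csk and Btk rose and Syk and Tec fell. From 2 to 4 h, 5 changed, where 22.9% of all tested genes did (11.4% higher, 11.5% lower). Fgr, Fyn and Tec fell, and Csk and Syk rose. Neither rise was called under median-of-ratios rescaling, which left 0 rises and 3 falls, where 50.4% of all called genes rose. In the IL-4 course the steps gave 2 calls from 0.5 to 1 h (Fyn up by 1.31, Lyn by -1.28), where 7.82% of all tested genes changed (4.21% higher, 3.61% lower). From 1 to 2 h there were none with limma (1 member, Lyn, at an unadjusted p under 0.05), where 9.4% of all tested genes changed (4.03% higher, 5.37% lower). The 3 calls from 2 to 4 h (Fyn -0.46, Csk -0.37 and Tec -0.68), where 5.48% of all tested genes changed (2.4% higher, 3.09% lower), were falls. In all, 16 of 24 member steps were called for LPS and 5 of 24 for IL-4, a difference that was not itself tested. The IL-4 number rose to 12 without replicate 1 and dropped to 1 without replicate 2 and to 1 without replicate 3.

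The stimuli were compared directly at each time in a fit of all 27 samples. In the order of the times 7, 8, 6 and 6 of the 8 members differed, where 53.8%, 64.5%, 68.6% and 68.0% of all tested genes did. Among all tested genes 18.0%, 24.0%, 26.4% and 26.1% were higher after LPS in the order of the times, and 35.8%, 40.5%, 42.3% and 41.9% lower. Src, Lyn and Syk were higher after LPS at each of the 4 times. Their differences at 2 h (LPS minus IL-4, log2) were 4.83 (95% interval 3.71 to 5.94), 3.14 (2.82 to 3.45) and 2.16 (1.76 to 2.56). The smallest of the 12 differences, 0.72 for Lyn at 0.5 h (0.40 to 1.03), was not called at equal totals.

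Csk was lower after LPS than after IL-4 at each time, by -2.40 (-2.62 to -2.18) at 0.5 h and by -0.54 (-0.76 to -0.33) at 4 h. Fyn was lower at 0.5 h (-1.36), 1 h (-2.62, interval -2.89 to -2.35) and 4 h (-0.68). At 2 h its difference was -0.22 (-0.49 to 0.06, adjusted p = 0.15). This became -0.85 and was called at equal totals, but was 0.05 and not called under median-of-ratios rescaling. Btk was lower at 0.5 h (-1.74) and 1 h (-2.34). Later its differences, -0.33 at 2 h (-0.68 to 0.02) and -0.04 at 4 h (-0.39 to 0.31), were not past the threshold. Both were called at equal totals (-0.96 and -0.66). The 2 h difference was also called with the replicate block (adjusted p = 0.0347) and in a fit of only the samples compared (adjusted p = 0.043). Under median-of-ratios rescaling the 4 h difference was 0.24 and not called. Tec was lower after LPS at 0.5 h (-0.68), 2 h (-1.81) and 4 h (-3.35, interval -3.70 to -3.01). The exception, 0.39 higher at 1 h (0.04 to 0.73, adjusted p = 0.0444), turned to -0.091 at equal totals and was lost without replicate 2 or replicate 3 (0.38 and 0.34). The Tec difference at 0.5 h was lost under median-of-ratios rescaling.

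Fgr stayed between -0.60 and 1.24 in the comparison of the stimuli. Its difference was 0.02 at 0.5 h (interval -0.65 to 0.69), then 0.96 at 1 h (0.29 to 1.63). It was 1.24 at 2 h (0.57 to 1.91) but -0.60 at 4 h (-1.27 to 0.07). The calls at 1 and 2 h were lost at equal totals, and the one at 1 h also without replicate 3 (0.93). The 4 h difference became -1.21 and was called at equal totals (adjusted p = 0.00167), and it was called in a fit of only the 6 samples compared (adjusted p = 0.0347). In the deposited scaling the members called higher and lower after LPS numbered, in the order of the times, 3 and 4, 5 and 3, 4 and 2, and 3 and 3. At equal totals they numbered 2 and 4, 3 and 3, 3 and 4, and 3 and 5. Of all called genes 33.4%, 37.2%, 38.4% and 38.4% were higher after LPS in the order of the times as deposited. At equal totals these shares were 19.1%, 22.3%, 22.5% and 22.6%.

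**Figure D3:**
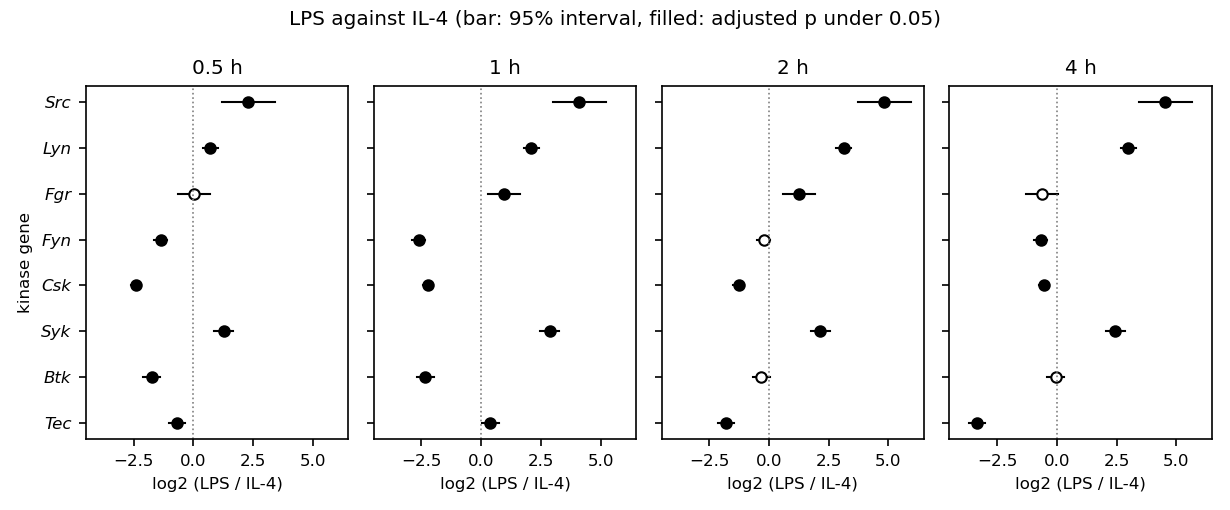
Difference between LPS and IL-4 (log2, positive where LPS is higher) of the 8 tested kinase genes, a panel for each time, with 95% intervals as bars and filled points where the adjusted p was under 0.05, 3 samples per group. Src, Lyn and Syk lie to the right of 0 and Csk to the left at each time, and Tec moves to -3.35 at 4 h.

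Each member had its own order of groups. For Lyn the 4 LPS groups came first, with 4 h and 2 h overlapping in their samples, then 1 h and 0.5 h overlapping, and the IL-4 groups from 1 h on came last and overlapped with each other. For Fyn, IL-4 at 2 h and 1 h and LPS at 2 h led with overlapping samples. For Csk the 3 leading groups, IL-4 at 1, 0.5 and 2 h, overlapped, and the last 2, LPS at 1 and 0.5 h, did too. For Tec, LPS at 1 h led without overlap and the 3 IL-4 groups from 0.5 to 2 h followed.

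Levels of different genes were compared per kb, both of transcribed region, since chromatin-associated RNA holds introns, and of cDNA, since it is not stated whether reads in introns were counted. Per kb of transcribed region, untreated macrophages had 28.2 ± 2.13 (mean ± SD, n = 3) normalised read counts for Lyn, 17.7 for Syk, 11.1 for Tec, 10.1 for Csk, 5.80 for Btk, 2.67 for Fyn, 0.264 for Fgr, 0.140 for Src and 0.0307 for Yes1. Per kb of cDNA the untreated levels were 926 for Lyn, 471 for Tec, 219 for Syk, 142 for Fyn, 93.4 for Btk, 81.8 for Csk, 2.19 for Fgr, 1.72 for Src and 0.506 for Yes1. Lyn came first on both scales, far above the other Src family members of the group, and Fgr, Src and Yes1 came last, whereas the order of the others depended on the length used. At 2 h of LPS the levels per kb of transcribed region were 87.9 for Lyn, 15.4 for Src and 15.3 for Fyn, and per kb of cDNA they were 2887, 188 and 809, so that Src was level with Fyn on the first scale and below it on the second. At 2 h of IL-4, Tec and Fyn were above Lyn on both scales (21.0, 17.7 and 10.0 per kb of transcribed region, and 890, 936 and 328 per kb of cDNA), while Csk was above Lyn per kb of transcribed region (18.5) and below it per kb of cDNA (151).

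The genes whose pattern over the 27 samples was most like that of a member, among up to 6156 protein-coding genes averaging 50 normalised read counts or more, were found by Pearson r of the log2 values. For Src they were Mllt6 and Chmp4b (r = 0.97 each), for Lyn Gas7 and Itga4 (0.96 each), for Fyn Tiam1 (0.96) and Htt (0.95), and for Csk Dnajc15 and Pip4p1 (0.97 each). For Syk they were Cyria and Art2a (0.96 each), for Btk Trmt11 (0.96) and Ttc37 (0.95), for Tec Crtc3 (0.96) and Raph1 (0.94), and for Fgr, with the lowest likeness, Fmnl2 (0.88) and Med13l (0.86). No member was among the likest genes of another, but Fgr and Yes1 averaged under 50 and so could not be named. The samples fall into 9 groups of 3, so these r values describe group patterns and carry no p.

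The surroundings of these kinases were described through 4 lists of pathway genes. Of 10 further kinases of the 4 families, 5 had values high enough to test and 5 of these changed with LPS (2 rose and 3 fell by their largest change), and 2 changed with IL-4. Matk, the relative of Csk, rose after IL-4 from 15.0 ± 4.58 to 80.3 ± 8.39 normalised read counts at 4 h (log2 fold change 2.38, adjusted p = 1.37e-06). The median log2 fold change of these 5 genes at 4 h was -1.15 for LPS, which is the value of Matk, and -0.08 for IL-4. Frk, Txk and Lck were low throughout, at most 18, 21 and 31 normalised read counts.

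Of 21 tested receptors and adaptors that signal through these kinases, 21 changed after LPS (10 rose, 11 fell) and 16 after IL-4 (7 rose, 9 fell). Clec4e, the lectin Mincle that signals through the Fc receptor gamma chain and Syk, rose from 18.3 ± 4.62 to 2052 ± 525 normalised read counts within 0.5 h of LPS (log2 fold change 6.73). The activating Fc receptors Fcgr4 (4.24) and Fcgr1 (3.79) rose by 4 h, as did the inhibitory Fc receptor Fcgr2b (3.74), which was added after its value was seen. The inhibitory receptor Cd300a (-5.07 at 4 h), the lipid receptor Trem2 (-3.24 at 4 h) and the beta-glucan receptor Clec7a (-2.98 at 2 h) fell. IL-4 raised Clec7a (3.09 at 0.5 h), the scavenger receptor Cd36 (3.29 at 0.5 h) and Fcgr2b (3.08 at 1 h), and lowered the lectin Clec4d (-4.32 at 2 h), the integrin Itgam (-1.69 at 4 h) and the inhibitory receptor Pirb (-1.20 at 4 h). The largest adjusted p of these named changes was 0.00132, for Pirb. Each value is that of the time of largest change, and some genes changed sign over a course. After IL-4, Cd36 was at -1.21 at 4 h and Itgam at 1.18 at 0.5 h. After LPS, Fcgr4 and Fcgr1 were at -1.77 and -1.64 at 0.5 h. The median of the list at 4 h was -0.29 for LPS and -0.25 for IL-4.

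Of 33 tested substrates and effectors, 32 changed after LPS (19 rose, 13 fell) and 20 after IL-4 (6 rose, 14 fell). LPS raised Malt1, the paracaspase downstream of Syk and Card9, from 163 ± 5.51 to 5471 ± 543 normalised read counts at 2 h (log2 fold change 5.06, adjusted p = 9.87e-15), and the adaptors Stap1 (3.10) and Lcp2, or SLP-76 (3.04), at 0.5 h. It lowered the phospholipase Plcg1 (-2.93 at 2 h), the adaptor Lat2 (-2.87 at 2 h) and the exchange factor Vav2 (-2.50 at 4 h). IL-4 raised Stap1 (1.78 at 0.5 h), the kinase Prkcd (1.43 at 4 h) and Lcp2 (1.40 at 0.5 h), and lowered Vav3 (-2.16 at 4 h) and the adaptors Fyb (-1.88 at 2 h) and Blnk (-1.43 at 2 h). Stap1 did not stay raised after IL-4, at -1.59 at 4 h. After LPS it was at -0.48 at 2 h and higher again, at 1.99, at 4 h. Vav3 was at 0.54 at 1 h of IL-4, before its fall. The list had a median of 0.61 at 4 h of LPS and of -0.16 at 4 h of IL-4.

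Of 22 tested phosphatases, ubiquitin ligases and inhibitory adaptors, 22 changed after LPS (11 rose, 11 fell) and 19 after IL-4 (11 rose, 8 fell). Inpp5d, the lipid phosphatase SHIP1 that opposes signals downstream of Syk, had 2542 ± 67.7 normalised read counts in untreated samples and fell to 48.3 ± 6.66 at 2 h of LPS (log2 fold change -5.70, adjusted p = 5.32e-14). Ptpn18 (-3.29) and Ptpn22 (-2.13), both phosphatases of the PEST group, fell at 4 h of LPS. The receptor phosphatase Ptprj, which can activate Src family kinases, rose from 3348 ± 474 to 24574 ± 4762 at 2 h (2.87). The cytokine signalling inhibitor Socs3 rose from 3.33 ± 1.53 to 453 ± 35.4 at 2 h of LPS. Socs1, at most 3 in each untreated sample, was at least 52.1-fold higher at 2 h of LPS and at least 65.4-fold higher at 2 h of IL-4, against a floor of 3 in each library. IL-4 also raised the adaptor Dok2 (1.86 at 4 h) and the ubiquitin ligase Cbl (1.80 at 0.5 h) and lowered Ptpn22 (-1.96 at 2 h), Ptpn12 (-1.36 at 4 h) and Ptprc, or CD45 (-1.35 at 2 h). Ptpn12 was first higher, at 1.29 at 0.5 h of IL-4, and Ptpn22 was at 0.75 at 1 h of LPS. The list median at 4 h was 0.33 for LPS and -0.10 for IL-4.

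Among all tested genes 87.6% changed with LPS and 40.3% with IL-4, and the medians at 4 h were -0.26 and 0.02. The lists of receptors, substrates and inhibitors each showed a larger share of calls than all genes did, without any test of that difference. These lists were written with earlier results of these data known, and their levels were not matched to those of all tested genes. The larger share is therefore not an independent result about the pathway.

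**Figure D4:**
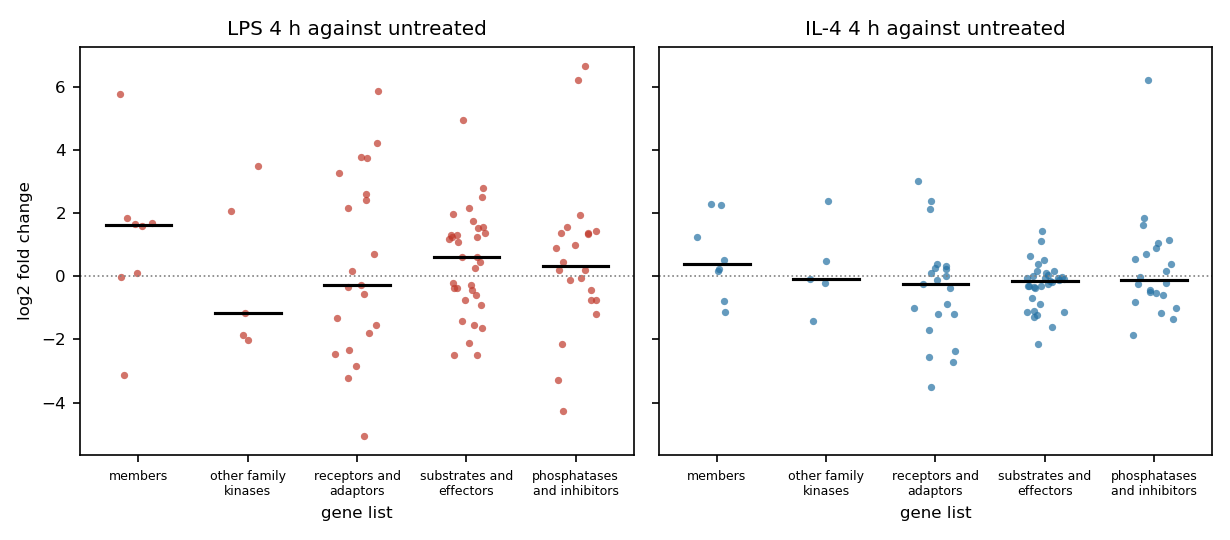
Log2 fold change at 4 h of LPS (left) and IL-4 (right) against untreated for the 8 tested kinase genes (members) and the tested genes of the 4 pathway lists, with a point for each gene and a black bar at the median; points are spread sideways at random. Genes of each list lie on both sides of 0, and the list medians after IL-4, from -0.25 to -0.08, are nearer to 0 than the widest single genes.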

How the data were processed

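Chromatin-associated RNA of 27 samples was measured. The authors prepared SMART-seq2 libraries with random hexamers, aligned reads to mm10 with TopHat2 (v2.1.1), removed reads with several hits or in blacklisted regions, used bedtools (v2.29.2), counted reads per RefSeq gene (GRCm38.p6) and scaled libraries on invariant genes. Versions are from the submitters' processing notes. What was deposited are normalised read counts without decimals, treated here as a score; a test for raw counts was therefore not used. Strand and intron handling are not stated. The read depth is not given: in 24 of 27 libraries every whole value from 1 to 30 occurs, so that 1 read counted for at most about 1 unit there; for the other 3 depth is unknown.

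The tests used limma 3.58.1 (R 4.3.3) on log2(value + 1) (trend, Benjamini-Hochberg adjustment, threshold 0.05) over the 13901 genes with at least 10 in at least 3 samples. A course entered its fit with 15 samples, 3 of them untreated, and LPS minus IL-4 with all 27. Fold changes are on the log2(value + 1) scale, which understates those of low genes. The study's impulse model was not run. The fit was tested on simulated data. All 9 members were named, with at most 3 rises and 3 falls per list and stimulus (largest change among genes past the F test with a mean of at least 50 in the higher group), genes that overlap a member, and 2 genes of most similar pattern per member. A gene that the rule also names and a motif that was also searched are not reported here. The members and lists were chosen with earlier results of these data known.

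Alternatives were a pseudocount of 8, no filter, a mean of at least 50, median-of-ratios rescaling, equal totals, a replicate block, leaving out each replicate, averaging replicates 2 and 3, and the other choice of samples.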

Additional observations from a re-analysis of the deposited data

Results flagged for a closer look

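For 5 of the kinase genes, LPS and IL-4 moved the level in opposite directions at the same time, each change past the threshold on its own, and the difference between the stimuli (LPS minus IL-4, log2, limma over all 27 samples) was tested directly. Both changes are measured against the same untreated samples. The share of all tested genes with such opposite calls was not counted, so the 5 have no background to be read against. A gene and time were listed only where both changes and the difference itself passed the threshold, so the p-values of the differences add no separate support. All differences given here had an adjusted p of at most 9.84e-10 and 3 samples per group.

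Lyn rose after LPS and fell after IL-4 at 1 h (difference 2.09), 2 h (3.14) and 4 h (2.99). Syk did the same at 1 h (2.87), 2 h (2.16) and 4 h (2.45). Csk fell after LPS and rose after IL-4 at 0.5 h (-2.40), 1 h (-2.24) and 2 h (-1.28). Btk fell after LPS and rose after IL-4 at 1 h (-2.34), and Tec did so at 2 h (-1.81). The separate calls of Csk at 2 h of LPS, of Btk at 1 h of IL-4, and of Syk at 2 h of LPS and at 1 and 4 h of IL-4 were lost under at least 1 alternative, whereas each of the 11 differences was called in the same direction under every alternative run.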

How the results depend on the processing

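Of 75 member changes called at a time or between the stimuli, 59 kept their direction and call under every alternative that could be run. At equal totals the log2 values of Fyn at 0.5 h (-0.47) and 1 h (-0.49) of LPS, of Btk at 2 h (-0.45) and 4 h (-0.49) of LPS and of Tec for LPS minus IL-4 at 1 h (-0.091) reversed; this rescaling lowers every LPS value. Called IL-4 member steps numbered 3 without the filter on low values, 3 with the other choice of samples and 1 with replicates 2 and 3 averaged, against 5; leaving out 1 replicate gave 1 to 12. Leaving out 1 replicate gave 3 to 5 members changed at 0.5 h of IL-4, 4 to 8 at 1 h and 3 to 8 at 4 h, the highest of these each time without replicate 1; the cause was not tested. The replicate numbers were not taken to pair the samples, since no label gave a shared source for a number. Deviations of same-numbered samples from their group means did correlate above 0.1 in 106 of 108 pairs (median 0.31, lowest 0.09). For differently numbered samples this was 70 of 216 pairs (median -0.31), and 19 of 27 samples correlated best with their own number. Same-numbered samples thus tended to deviate together, and a block for the number changed the IL-4 calls as follows. With the replicate block, 9 IL-4 member steps, 7 members at 4 h of IL-4 and 8 members over the IL-4 course were called, the last with Src, which was then called at 1 h (adjusted p = 0.0098), 2 h (0.000509) and 4 h (0.0104). Syk was then also called at 0.5 h of IL-4 (adjusted p = 0.00413) and Tec at 4 h (0.0175). A mean of at least 50 leaves Fgr untested. No count interval can be given, since depth is unknown.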
